A study of Mus musculus with 9 samples.

Results

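The genes described here carry long-chain fatty acids into the muscle fibre and burn them in its mitochondria: Cd36 and Fabp3 (uptake and transport), Cpt1b, Slc25a20 and Cpt2 (the carnitine shuttle) and Acadvl, Acadl, Acadm, Hadha and Hadhb (beta-oxidation). They were chosen by symbol, and all 10 had a row among the 23231 genes of the deposited expression table. The samples were RNA from the tibialis anterior, a shin muscle, of 6-month-old C57BL/6 mice into which siRNA (small interfering RNA) had been electroporated. The 9 libraries formed 3 groups of 3, all electroporated: a non-targeting control siRNA, siRNA construct 5 against Ubr4 and siRNA construct 7 against Ubr4. Ubr4 encodes a very large ubiquitin ligase that recognises degradation signals at protein N-termini, and the series concerns ubiquitin ligases that set the size of muscle fibres. The labels do not say whether the 3 samples of a group came from separate mice, so the p-values measure only how these samples spread, which may be technical. Values are FPKM (fragments per kilobase of gene, adjusted for sequencing depth). Comparison of levels between genes depends on the exon length by which each gene was divided. Comparison between libraries also depends on how they are scaled. With construct 5 against the controls the median log2 change over all tested genes was 0.13, and 0.02 after median-ratio scaling of the libraries.

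Long-chain fatty acids reach a muscle fibre from the blood, cross its membrane with the help of the scavenger receptor Cd36 and are carried through the cytosol by fatty acid-binding proteins. Activated as acyl-CoA, they enter the mitochondrial matrix as carnitine esters and are then shortened by repeated cycles of dehydrogenation, hydration, a further oxidation and thiolysis. The genes of this pathway are shared targets of PPAR and ERR nuclear receptors with the coactivator PGC-1alpha, and the tibialis anterior of the mouse is a mostly fast muscle that leans on glycolysis.

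Promoter sequence is shown first for the genes the results turn on: Fabp3, which had the highest level and its own profile across libraries; Slc25a20, with the largest difference between the constructs; Acadm and Acadvl, which hold a nuclear receptor half-site; and Hadhb, whose promoter window overlaps that of Hadha. Windows run from 250 bases before to 50 after the RefSeq gene start (300 bases, build GRCm38.p6, which is not the mm9 build of the expression table) and are written 5′ to 3′ on the strand of the gene. Capitals mark the half-site AGGTCA and the GC box GGGCGG on either strand (TGACCT and CCGCCC as read on the other).
Fabp3 (chr4:130308488-130308787, plus strand): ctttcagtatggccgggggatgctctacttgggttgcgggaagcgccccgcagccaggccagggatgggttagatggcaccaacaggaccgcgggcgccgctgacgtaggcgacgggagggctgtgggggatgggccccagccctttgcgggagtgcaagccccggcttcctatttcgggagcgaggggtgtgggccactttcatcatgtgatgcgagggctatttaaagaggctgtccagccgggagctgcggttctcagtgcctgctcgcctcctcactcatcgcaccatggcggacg
Slc25a20 (chr9:108661886-108662185, plus strand): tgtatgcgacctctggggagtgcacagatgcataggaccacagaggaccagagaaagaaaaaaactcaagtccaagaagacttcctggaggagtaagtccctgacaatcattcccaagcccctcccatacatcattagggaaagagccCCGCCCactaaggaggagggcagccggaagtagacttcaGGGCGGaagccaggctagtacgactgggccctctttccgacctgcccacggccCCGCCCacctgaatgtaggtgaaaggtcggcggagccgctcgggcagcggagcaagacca
Acadm (chr3:153944594-153944893, minus strand): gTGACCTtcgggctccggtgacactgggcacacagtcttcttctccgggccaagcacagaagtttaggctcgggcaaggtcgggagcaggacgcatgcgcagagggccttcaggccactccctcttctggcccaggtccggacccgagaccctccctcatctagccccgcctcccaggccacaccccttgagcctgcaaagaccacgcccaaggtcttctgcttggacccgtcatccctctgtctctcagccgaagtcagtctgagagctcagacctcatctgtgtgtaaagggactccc
Acadvl (chr11:70015379-70015678, minus strand): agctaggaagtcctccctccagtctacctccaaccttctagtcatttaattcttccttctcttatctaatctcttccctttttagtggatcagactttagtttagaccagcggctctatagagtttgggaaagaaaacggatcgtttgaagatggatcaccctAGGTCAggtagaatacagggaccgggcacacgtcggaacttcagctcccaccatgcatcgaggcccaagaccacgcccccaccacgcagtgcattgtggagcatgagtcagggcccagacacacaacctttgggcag
Hadhb (chr5:30155003-30155302, plus strand): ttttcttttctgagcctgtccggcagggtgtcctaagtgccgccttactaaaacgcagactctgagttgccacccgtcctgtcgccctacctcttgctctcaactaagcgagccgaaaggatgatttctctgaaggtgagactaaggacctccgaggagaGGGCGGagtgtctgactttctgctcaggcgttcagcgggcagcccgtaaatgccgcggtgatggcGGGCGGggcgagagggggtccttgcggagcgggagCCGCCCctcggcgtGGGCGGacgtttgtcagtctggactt

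Of the 10 genes, 9 matched a RefSeq window; Cpt1b did not. On both strands AGGTCA occurred in 3 of the 9 (Cd36, Acadvl and Acadm), against 16.3% of 32851 windows of the same length. A direct repeat of AGGTCA with a single base between the copies, the consensus of PPAR heterodimers, was in 0 of the 9 and in 0.0396% of all windows. TCAAGGTCA, the ERR consensus, which contains AGGTCA, was in 0 of the 9 and in 0.423% of all windows. GGGCGG occurred in 6 of the 9 (Cd36, Slc25a20, Cpt2, Acadl, Hadha and Hadhb), against 35.7% of all windows. Fabp3 held none of the 4 motifs in its window. Hadha and Hadhb, which encode the alpha and beta subunits of one enzyme complex, lie head to head: their RefSeq starts are 273 bases apart, and 228 bases belong to the windows of both. The only GC box of Hadha lies in these shared bases and is also 1 of the 4 of Hadhb, so the 6 of 9 counts it for both genes. The windows not printed lie at chr5:17835847-17836146 (Cd36), chr4:107923540-107923839 (Cpt2), chr1:66863260-66863559 (Acadl) and chr5:30154931-30155230 (Hadha), all on the minus strand. A match is a description of letters, not of a bound site.

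The targeted gene was checked first. Ubr4 stood at 7.82, 10.3 and 9.09 FPKM in the controls, at 3.61, 3.80 and 2.73 FPKM with construct 5 and at 2.25, 2.58 and 3.07 FPKM with construct 7. The limma log2 change was -1.20 (SE 0.129, adjusted p = 0.0168) with construct 5 and -1.47 (SE 0.129, adjusted p = 0.00882) with construct 7. All 6 values were below all 3 controls, but leaving out control replicate 2 or 3 ended the call for either construct, as leaving out construct 5 replicate 1 did for construct 5 and construct 7 replicate 2 for construct 7 (adjusted p from 0.0598 to 0.0956). Depths recovered from the table ranged from 29312121 to 45563538 reads. The defining skeletal muscle transcripts summed to between 56937 and 70494 FPKM in the 9 libraries, 8 of 8 of them present, with Acta1 at a mean of 18137 FPKM.

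Fabp3, the fatty acid carrier of heart and muscle cytosol, had by far the highest FPKM of the 10 genes and ranked 99 of all genes by control mean. Its values (ENSMUSG00000028773) were 502, 419 and 353 FPKM in the controls, 353, 727 and 497 FPKM with construct 5 and 449, 639 and 639.9 FPKM with construct 7. Group means were 424 ± 74.8, 526 ± 189 and 576 ± 109.8 FPKM (SD, n = 3 each). Construct 5 replicate 2 was the highest library, construct 5 replicate 1 lay at the bottom of the control range, and the groups overlapped. Cd36 (ENSMUSG00000002944), the membrane receptor for long-chain fatty acids, stood at 76.2, 61.9 and 64.3 FPKM in the controls. It stood at 49.2, 80.8 and 59.2 FPKM with construct 5 and at 74.9, 65.9 and 88.5 FPKM with construct 7. Its construct 5 libraries lay on both sides of the control range, which all 3 groups overlapped. Cd36 is also a gene of capillary endothelium, adipocytes and macrophages, and in whole muscle fewer cells of a type and less RNA per cell cannot be told apart.

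**Figure D1:**
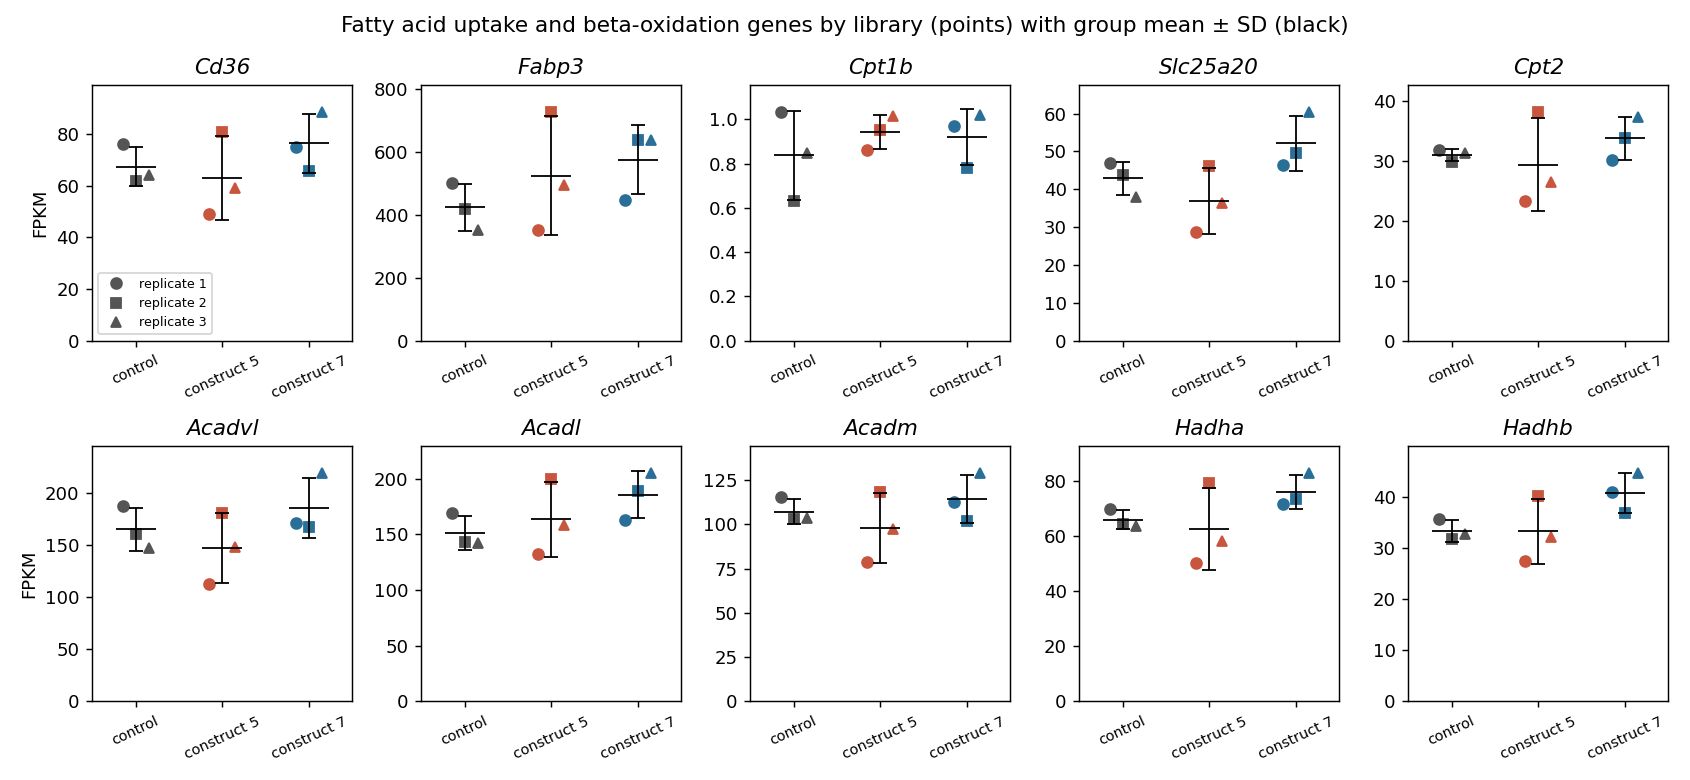
FPKM (vertical axes, starting at 0) of the 10 genes in the 3 control, 3 construct 5 and 3 construct 7 libraries (points, shaped by replicate number), with the mean and SD of each group in black. In most panels construct 5 replicate 1 is the lowest point and construct 7 replicate 3 the highest, while construct 5 replicate 2 stands near or above the top of the controls; Cpt1b stays at or below 1.03 FPKM.

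Cpt1b (ENSMUSG00000078937) encodes the muscle isoform of carnitine palmitoyltransferase 1, the step that commits fatty acids to the mitochondrion and that malonyl-CoA inhibits. Its deposited values were 1.03, 0.633 and 0.847 FPKM in the controls, 0.860, 0.950 and 1.02 FPKM with construct 5 and 0.968, 0.779 and 1.02 FPKM with construct 7. These correspond to 69 to 148 reads per library, each with a counting error of up to 12%. Cpt1b therefore ranked 11030 by control mean and lay below the filter of a mean of 1 FPKM, so 9 of the 10 genes were tested. The isoform of liver and other tissues, Cpt1a, was higher at 2.18 to 4.61 FPKM, 2.57 to 6.15 times Cpt1b. In GENCODE M21 a read-through gene model that runs from the neighbouring Chkb into Cpt1b (Gm44502) shares 81.4% of the 3372 exon bases of Cpt1b. Reads in shared exons can be left out by counters that require a single gene. The deposited table has no row with the identifier of Gm44502. The annotation of the authors is not given in the sources used here. The part of such a model in the low values was not tested. Fitted without the filter, Cpt1b had limma log2 changes of 0.08 (SE 0.0922, adjusted p = 0.611) with construct 5 and 0.07 (SE 0.0922, adjusted p = 0.958) with construct 7.

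Slc25a20 (ENSMUSG00000032602), the carrier that exchanges acylcarnitine for carnitine across the inner mitochondrial membrane, stood at 46.8, 43.7 and 38.0 FPKM in the controls. It stood at 28.6, 46.0 and 36.4 FPKM with construct 5 and at 46.5, 49.6 and 60.3 FPKM with construct 7. All 3 construct 7 libraries lay above all 3 construct 5 libraries, and both groups overlapped the controls. Cpt2 (ENSMUSG00000028607), which turns acylcarnitine back into acyl-CoA in the matrix, had the tightest controls of the tested genes at 31.7, 29.8 and 31.3 FPKM. Its construct 5 libraries stood at 23.3, 38.0 and 26.5 FPKM, so that 2 lay below and 1 above every control, and its construct 7 libraries at 30.1, 33.8 and 37.2 FPKM.

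The acyl-CoA dehydrogenases carry out the first oxidation of the cycle on chains of different length. Acadvl (very long chains, ENSMUSG00000018574) stood at 188, 161 and 147 FPKM in the controls, 113, 181 and 149 FPKM with construct 5 and 172, 168 and 219 FPKM with construct 7. In GENCODE M21 its gene model shares 42.9% of its exon bases with Dvl2, a gene of 0.780 FPKM on average, an overlap that the models of Acadl and Acadm lack. Acadl (long chains, ENSMUSG00000026003) stood at 169, 143 and 142 FPKM in the controls, 132, 199.6 and 159 FPKM with construct 5 and 163, 189 and 205 FPKM with construct 7. Acadm (medium chains, ENSMUSG00000062908) stood at 115, 103 and 103 FPKM in the controls, 78.7, 118 and 97.1 FPKM with construct 5 and 113, 102 and 129 FPKM with construct 7. For all 3 genes the lowest library was construct 5 replicate 1, the highest was construct 7 replicate 3, and the 3 groups overlapped.

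The mitochondrial trifunctional protein performs the remaining steps on long chains, Hadha carrying the hydratase and dehydrogenase activities and Hadhb the thiolase. Hadha (ENSMUSG00000025745) stood at 69.8, 64.3 and 63.8 FPKM in the controls, 50.1, 79.1 and 58.2 FPKM with construct 5 and 71.7, 73.5 and 82.8 FPKM with construct 7. Hadhb (ENSMUSG00000059447) stood at 35.7, 31.6 and 32.7 FPKM in the controls, 27.5, 40.1 and 32.1 FPKM with construct 5 and 40.8, 36.8 and 44.6 FPKM with construct 7. For both genes every construct 7 library lay above every control, by 1.15 and 1.22 times on the means. That non-overlap was shared by 10.5% of the 10794 tested genes in the upward direction, against 2 of the 9 genes here, and 6.26% were all below the controls, against 0 of 9.

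By control mean the order of levels ran from Fabp3 (424 FPKM) through Acadvl (166) and Acadl (151.5), Acadm (107), Cd36 (67.5) and Hadha (66.0), Slc25a20 (42.9), Hadhb (33.3) and Cpt2 (30.9) to Cpt1b (0.837). The neighbours Acadvl and Acadl, Cd36 and Hadha, and Hadhb and Cpt2 had overlapping control values, and the other neighbours in that order did not overlap. This is an order of FPKM, not of reads. In control replicate 1 Hadhb had an estimated 6901 reads over 6595 exon bases, and Cpt2 2221 reads over 2391. The part of exon length in the order was not tested. Together the 10 genes summed to 977 to 1235 FPKM in the controls, 857 to 1510 FPKM with construct 5 and 1162 to 1508 FPKM with construct 7.

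The first comparison asked whether construct 5 changed these genes, and limma called 0 of the 9 tested (0 at an unadjusted p under 0.05; adjusted p from 0.351 to 0.930). The background was 5.27% of all tested genes called, 569 genes, of which 504 were higher and 65 lower, and 31.9% at an unadjusted p under 0.05. Leaving out 1 library changed that count to 1 (construct 5 replicate 1), 41 (construct 5 replicate 2), 2 to 4 (any control), 6 (construct 7 replicate 3) or 356 (construct 7 replicate 1). With median-ratio scaling 72 genes were called, of which 18.1% were higher, in place of 88.6%. Of the 9 genes, 7 had values below 0 and 2 above, from -0.23 for Slc25a20 to 0.26 for Fabp3, with Acadl turning from above to below 0 under median-ratio scaling. Their median log2 change was -0.10, beside a median of 0.13 over all tested genes, and only Fabp3 lay above that median. With median-ratio scaling, where the median of all genes was 0.02, the median of the 9 was -0.24. No gene had construct 5 libraries all outside the controls on one side, against 33% of tested genes all above and 5.19% all below. Intervals were wide: the 95% interval of the log2 change, unadjusted, was -0.60 to 0.14 for Slc25a20, -0.57 to 0.21 for Acadvl and -0.31 to 0.83 for Fabp3.

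The construct 5 libraries differed widely among themselves. Within that group the highest library exceeded the lowest by 1.46 (Hadhb) to 2.06 times (Fabp3), with a median of 1.60 over the 9 genes, beside a median of 1.20 over all tested genes. In the controls the same median was 1.19 for the 9 genes and 1.18 for all genes, and with construct 7 it was 1.27 and 1.20. Counting error was small beside this: the 9 genes rested on an estimated 1844 to 31452 reads per library, a counting error of at most 2.33%. The estimates lay up to 0.499 reads from a whole number for Hadha, 0.488 for Acadm, 0.44 for Cd36 and 0.421 for Slc25a20. The exon lengths used for these genes may therefore differ from those of the authors. Construct 5 replicate 1 lay below every control in 8 of 9 genes and was the lowest of all 9 libraries in those 8, against 14.9% and 7.8% of all tested genes. Construct 5 replicate 2 lay above every control in 7 of 9, against 58.2% of all tested genes, and construct 5 replicate 3 lay below every control in 5 of 9, against 17.6%. Without construct 5 replicate 1 the median of the 9 was 0.04 and 7 of 9 were above 0. Without construct 5 replicate 2 the median was -0.29 and 0 of 9 were above 0. In neither case did any of the 9 pass the test. Depth differed too: construct 5 replicate 2 and construct 7 replicate 3, the libraries with high levels, were the deepest at 45563538 and 43077406 reads, against 33090871 reads in construct 5 replicate 1 and 29312121 to 32317623 in the controls. The part of depth in these levels was not tested.

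**Figure D2:**
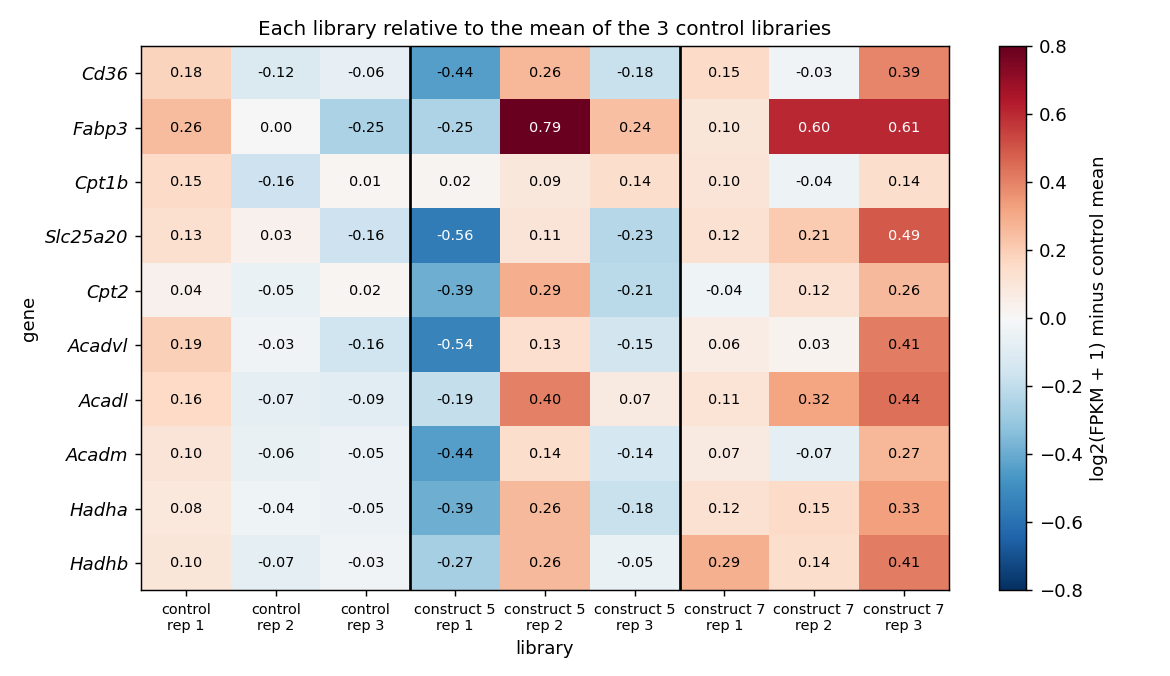
Differences in log2(FPKM + 1) from the mean of the 3 control libraries (colour and printed value) for the 10 genes (rows) in the 9 libraries (columns, groups divided by black lines). The column of construct 5 replicate 1 is negative in all 9 tested genes, those of construct 5 replicate 2 and construct 7 replicate 3 are positive in all 9, and Fabp3 reaches 0.79 in construct 5 replicate 2.

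Most of the 10 genes, though not Fabp3 and Cpt1b, varied together from library to library. The mean of the 10 profiles, each relative to its own control mean on the log2(FPKM + 1) scale, was -0.34, 0.27 and -0.07 in the construct 5 libraries and 0.11, 0.14 and 0.37 in the construct 7 libraries. Hadha followed that mean most closely, with a root mean square distance of 0.0489 over 9 libraries, while Fabp3 stood farthest from it at 0.275, followed by Cpt1b at 0.189. Each of the 10 is part of that mean, which lowers its own distance. Of all tested genes outside the 10, those nearest to the mean profile were Decr1 (0.0461), Epas1 (0.0672), the unnamed gene model Gm12002 (0.0749), Fgf1 (0.0758) and Etfa (0.0770), beside a median distance of 0.272 over all those genes. Decr1 encodes the mitochondrial dienoyl-CoA reductase that unsaturated fatty acids require, and Etfa a subunit of the flavoprotein that accepts electrons from the acyl-CoA dehydrogenases. Epas1 encodes a hypoxia-inducible factor and Fgf1 a fibroblast growth factor. Decr1 stood at 24.8, 40.6 and 29.9 FPKM in the construct 5 libraries and at 30.1 to 33.5 FPKM in the controls. These distances describe 9 libraries that share the same normalization.

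Markers of other cells and of mitochondria also differed between these libraries, and their part in the values of the 10 genes was not tested. The 9 mitochondrial content genes, among them citrate synthase and Cox4i1, had median log2 differences from the controls of -0.46, -0.05 and -0.24 in the construct 5 libraries and -0.01, 0.00 and 0.15 in the construct 7 libraries. Their summed level was 3932 to 4023 FPKM in the controls, 2931 to 3739 FPKM with construct 5 and 3966 to 4359 FPKM with construct 7. These 9 did not all go the same way: with construct 5, 2 of them had values above 0. Tfam had 0.22 (limma adjusted p = 0.065), with every construct 5 library above every control, and Tomm20 had 0.12. The 15 macrophage markers in the table summed to 145 to 213 FPKM in the controls, 238 to 424 FPKM with construct 5, where replicate 2 was highest, and 118 to 182 FPKM with construct 7. With construct 5 limma called 3 of the 14 tested markers higher, Lyz2 (adjusted p = 0.0491), Lgals3 (0.0476) and Gpnmb (0.0409), against 4.67% of all tested genes, and 13 of 14 had an unadjusted p under 0.05, against 31.9%. Between the constructs all 14 were lower with construct 7, where 3 were called (Lyz2, Gpnmb and Cd14), against 1.07% of all tested genes called lower, and 14 of 14 had an unadjusted p under 0.05, against 23.1%. These 4 genes were named after their values were seen. The 14 endothelial markers summed to 136 to 160.5 FPKM in the controls, 135 to 176 FPKM with construct 5 and 131 to 154 FPKM with construct 7. The 10 adipocyte markers, with Car3, which muscle also expresses, holding most of the sum, reached 1794 to 2011 FPKM in the controls, 1658 to 2668 FPKM with construct 5 and 1431 to 1892 FPKM with construct 7. Several fat cell genes stood apart in construct 5 replicate 2, where most of the 10 genes of fatty acid uptake and oxidation were high. In that library Adipoq, the adipocyte hormone adiponectin, was at 8.09 FPKM against 0.74 to 1.32 in the controls, and Cfd, the adipocyte protease adipsin, at 53.5 FPKM against 5.21 to 10.1. Cidec was at 4.27 FPKM against 0.40 to 0.44, Plin1 at 2.18 against 0.25 to 0.44, Retn at 1.58 against 0.15 to 0.26 and Lep at 0.84 against 0.01 to 0.10. These last 4 genes had means below 1 FPKM and were not tested, and of the 6 adipocyte markers tested 0 were called with construct 5 (0 at an unadjusted p under 0.05). The list was mixed in construct 5 replicate 2. Adig stood at 3.90 FPKM there against 0.69 to 1.98 in the controls, but Fabp4 at 308 lay inside the control range of 252 to 313. Thrsp was at 20.7 FPKM there and highest in construct 5 replicate 1 (33.1), and Car3 was highest in construct 5 replicate 3. The adipocyte genes named here were chosen after their values were seen. Slow and oxidative fibre markers summed to 145 to 190.2, 149.6 to 249.95 and 216 to 248 FPKM in the 3 groups, with Myh2 holding the largest share. Their median log2 differences from the controls were 0.28, 0.66 and 0.51 in the construct 5 libraries and -0.19, 0.47 and 0.12 in the construct 7 libraries. The slow troponin gene Tnni1 stood at 23.2, 16.4 and 17.2 FPKM with construct 5 against 6.11 to 9.04 FPKM in the controls. The list was not uniform: Myl3 had a log2 change of -0.40 with construct 5 and Myh2 one of 0.04. In construct 5 replicate 1 Myl3 was at 7.64 FPKM against 27.4 to 37.8 in the controls, and Myh2 at 52.4 against 64.3 to 97.1. Tnni1 and Myl3 were named after their values were seen. With construct 5, 7 of the 8 tested slow markers had values above 0, against 76.7% of all tested genes. Of the 8, 0 were called with construct 5 (2 at an unadjusted p under 0.05). No marker of these 4 lists was at 0 in all libraries.

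With construct 7 all 9 tested genes had values above 0, and again limma called 0 of 9 (0 at an unadjusted p under 0.05; adjusted p from 0.546 to 0.905). The background was 0.0556% of tested genes, 6 genes, all lower, and 9.47% at an unadjusted p under 0.05; the count was 0 without control replicate 2 or 3 or construct 7 replicate 2, 1 or 2 without control replicate 1 or any construct 5 library, and 5 without either other construct 7 library. The median log2 change of the 9 was 0.20, beside 0.02 over all tested genes, of which 57.0% were above 0. The 9 were above 0 under each of the 18 other settings as well. Filters, the fit on 6 libraries, the replicate block, robust spread and leaving out a construct 5 library could not move these values. Agreement under those settings was fixed in advance. In the main fit values ran from 0.09 for Acadm to 0.44 for Fabp3. The 95% intervals, unadjusted, were -0.23 to 0.41 for Acadm, -0.13 to 1.0 for Fabp3 and -0.01 to 0.57 for Hadhb. Construct 7 replicate 3 lay above every control in 9 of 9 genes, against 31.8% of all tested genes, and was the highest of the 9 libraries in 7 of 9, against 8.9%. In that library the slow and oxidative fibre markers had a median difference of 0.12 from the controls, and the defining muscle markers one of -0.31. Without it the median of the 9 was 0.14.

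**Figure D3:**
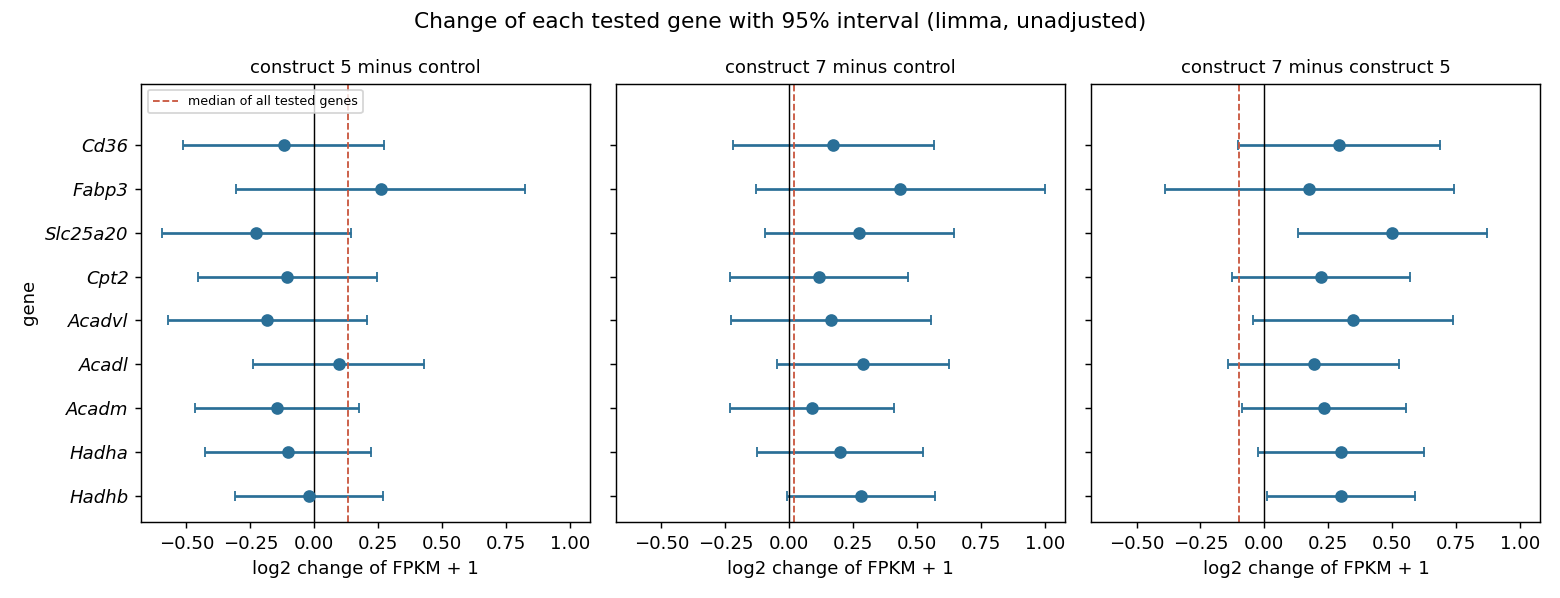
Log2 change of FPKM + 1 (horizontal axes) of the 9 tested genes (vertical axis) in 3 comparisons, with unadjusted 95% intervals from limma; the dashed line is the median of all tested genes. Every interval for either construct against the controls includes 0, and between the constructs those of Slc25a20 and Hadhb lie above 0 before adjustment.

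Set against each other, construct 7 was higher than construct 5 in all 9 genes on average, yet limma called 0 of 9 (2 at an unadjusted p under 0.05; adjusted p from 0.132 to 0.691). The background was 1.22% of tested genes, 132 genes, of which 16 were higher and 116 lower; with median-ratio scaling 76 were called, of which 46.1% were higher, in place of 12.1%. At an unadjusted p under 0.05 the background was 23.1%. Without 1 library the 132 calls became 3 to 4 (construct 7 replicate 1 or 3), 17 or 38 (construct 5 replicate 1 or 2), 52 to 55 (any control) or 387 (construct 7 replicate 2). The median of the 9 was 0.29, beside -0.10 over all tested genes, of which 24.5% were above 0, and with median-ratio scaling it was 0.40, beside -0.01. Fabp3 alone turned below 0 when a single library was left out, to -0.08. Slc25a20 had the largest difference, 0.50 (SE 0.165, 95% interval 0.13 to 0.87, limma adjusted p = 0.132), followed by Acadvl with 0.35 (SE 0.174, adjusted p = 0.261) and Hadha with 0.30 (SE 0.145, adjusted p = 0.243). Slc25a20 was also the 1 gene of the 9 whose construct 7 libraries all lay above construct 5, as did 3.02% of all tested genes, while 22.4% had them all below and 0 of the 9 did. Without construct 5 replicate 2, 8 of the 9 had an unadjusted p under 0.05 and 0 passed after adjustment; the lowest adjusted p over all alternatives was 0.0762, for Hadha in that setting. Averaged over both constructs and set against the controls, limma called 0 of 9 (0 at an unadjusted p under 0.05), with values from -0.03 to 0.35 and a background of 0.00926% of tested genes, 1 gene, and 19.1% at an unadjusted p under 0.05. The comparisons with the controls share the same 3 control libraries.

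Ratios between genes of the same or neighbouring steps were compared in 6 pairs. In FPKM Hadha exceeded Hadhb 1.76 to 2.03 times in all 9 libraries, with group means of 1.98 ± 0.045, 1.87 ± 0.088 and 1.87 ± 0.12 (SD, n = 3 each) for control, construct 5 and construct 7. The size of such a ratio also depends on the exon lengths by which the 2 genes were divided. The ratio of Acadl to Acadm was 1.47, 1.39 and 1.38 in the controls, 1.68, 1.69 and 1.64 with construct 5 and 1.45, 1.85 and 1.59 with construct 7. All construct 5 libraries lay above all controls in that ratio, although the separate levels of both genes overlapped. The same held for Acadl over Acadvl, with 0.898, 0.889 and 0.967 in the controls and 1.17, 1.10 and 1.07 with construct 5, and for Fabp3 over Cd36, with 5.49 to 6.76 in the controls and 7.18 to 8.99 with construct 5. For these 3 ratios with construct 5 an exact permutation test, two-sided, gave p = 0.1, the smallest that 3 libraries against 3 allow, and 0.4 after Benjamini-Hochberg adjustment over the 12 ratio tests made. Slc25a20 over Cpt2 averaged 1.39, 1.27 and 1.55 in the 3 groups (exact permutation p = 0.3 for each construct). With 0.1 as the smallest possible p, none of the 12 could pass 0.05, so these tests cannot decide whether a ratio changed. How often ratios of other genes lie all above the controls was not computed. For single genes with construct 5 that share was 33%. The pairs of genes were chosen with their values known.

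**Figure D4:**
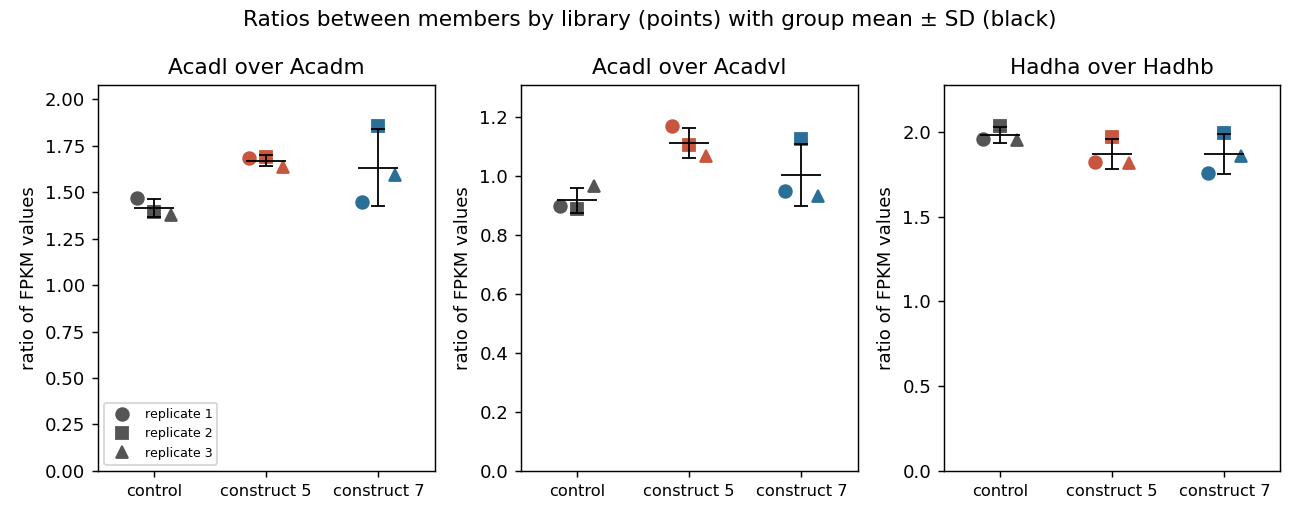
Ratios of FPKM values (vertical axes, starting at 0) in each library (points, shaped by replicate number) with the mean and SD of each group in black, for Acadl over Acadm, Acadl over Acadvl and Hadha over Hadhb. The construct 5 points lie above all control points in the first and the second panel and overlap them in the third.

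Beyond these 10, 84 other genes of fatty acid supply, oxidation and its regulation were in the table and 79 were tested. With construct 5 limma called 3 of them higher and 0 lower, beside 4.67% of all tested genes higher and 0.602% lower. At an unadjusted p under 0.05 there were 14 of the 79, against 31.9% of all tested genes. In the other 3 comparisons 0 of the 79 passed. At an unadjusted p under 0.05 there were 10 for construct 7 (9.47% of all tested genes), 13 for the mean of both constructs (19.1%) and 6 between the constructs (23.1%). Their median log2 change was 0.06 with construct 5 and 0.04 with construct 7.

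The 3 that rose with construct 5 were Plin2, Decr2 and Acsl6, none of them an enzyme of the mitochondrial spiral. Plin2, a coat protein of lipid droplets, went from 9.29, 10.1 and 8.79 to 14.4, 15.4 and 13.9 FPKM (log2 change 0.59, SE 0.110, limma adjusted p = 0.0406). Decr2, the peroxisomal dienoyl-CoA reductase, went from 1.28, 1.43 and 1.32 to 2.67, 2.49 and 2.06 FPKM (0.54, SE 0.10, adjusted p = 0.0406). Acsl6, a long-chain acyl-CoA synthetase, went from 2.82, 3.23 and 3.32 to 5.25, 4.15 and 4.41 FPKM (0.44, SE 0.0871, adjusted p = 0.0406). For each of the 3 genes every construct 5 library lay above every control, as in 33% of all tested genes. With median-ratio scaling none of the calls held (adjusted p of 0.0812, 0.0566 and 0.0728), nor without any 1 control, construct 5 replicate 1 or 2, or construct 7 replicate 3 (adjusted p of up to 0.138). Plin2 is also abundant in lipid-laden macrophages, whose markers were high in the same libraries; their part in its level was not tested.

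Of the 15 other genes of mitochondrial beta-oxidation and electron transfer, 0 passed in any comparison, with 0 at an unadjusted p under 0.05. With construct 5, 13 of 15 had values below 0 (median -0.09), and with construct 7, 13 of 15 had values above 0 (median 0.06), beside 76.7% and 57.0% of all tested genes above 0. The smallest p-values belonged to Acad9 (-0.17 with construct 5, adjusted p = 0.189), Etfa (0.24 between construct 7 and construct 5, adjusted p = 0.267), Acad11 (0.19 with construct 7, adjusted p = 0.616) and Decr1 (0.26 between the constructs, adjusted p = 0.326). Among 13 uptake and activation genes, Acsl4 (0.38 with construct 7, adjusted p = 0.408), the mitochondrial aspartate aminotransferase Got2 (0.41 between construct 7 and construct 5, adjusted p = 0.149) and Fabp5 (-0.41 between them, adjusted p = 0.153) came after Acsl6. With construct 5 against the controls Got2 had -0.28 (adjusted p = 0.212) and Fabp5 0.32 (adjusted p = 0.171).

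Among 6 other genes of the carnitine shuttle and its malonyl-CoA control, 0 passed. With construct 5 Cpt1a had 0.39 (adjusted p = 0.151), malonyl-CoA decarboxylase Mlycd 0.17 (0.235), carnitine acetyltransferase Crat -0.13 (0.419) and acetyl-CoA carboxylase Acaca 0.04 (0.854). Of 12 peroxisomal genes 11 had values above 0 with construct 5 (median 0.14), beside 76.7% of all tested genes (median 0.13), and 6 of the 12 lay above that all-gene median, Hsd17b4 having 0.22 (adjusted p = 0.151), Crot 0.24 (0.102) and the transporter Abcd3 0.17 (0.238). Of 12 genes of lipolysis and droplets, the triglyceride lipase Pnpla2 had -0.28 with construct 5 (adjusted p = 0.167), the acyltransferase Gpam 0.30 (0.0906) and Dgat1 0.17 (0.184). With construct 7 the values were 0.26 for Hsd17b4, 0.10 for Crot, 0.27 for Abcd3, -0.04 for Pnpla2, 0.34 for Gpam and -0.001 for Dgat1, none of them called. For the mean of both constructs Gpam had 0.32 (limma adjusted p = 0.123).

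Among 21 regulators and PPAR targets 0 passed in any comparison. The coactivator gene Ppargc1a stood at 4.65, 4.09 and 5.09 FPKM in the controls, at 5.13, 6.77 and 6.33 FPKM with construct 5 and at 6.91, 6.57 and 6.96 FPKM with construct 7, so that all 6 Ubr4 siRNA libraries lay above the controls. Such a non-overlap was found in 33% of all tested genes for construct 5 and in 10.5% for construct 7. The share with both at once was not computed. All 6 libraries also lay above the controls for Pparg in this list and for Gpam, Hsd17b4, Crot, Acsl4 and Acsl6 above. The limma log2 change of Ppargc1a for the mean of both constructs had an adjusted p = 0.0882, and separately it was 0.33 with construct 5 (adjusted p = 0.0751) and 0.48 with construct 7 (adjusted p = 0.259). Next in that list, by the smallest p in any comparison, came Prkaa1, Pparg and Nrip1. With construct 5 Prkaa1, a catalytic subunit of AMP-activated kinase, had 0.30 (adjusted p = 0.0711), the receptor Pparg 0.24 (0.103) and the corepressor Nrip1 0.24 (0.106). With construct 7 they had 0.16, 0.20 and 0.21 in the same order.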

How the data were processed

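Gene expression had been measured by RNA sequencing in 9 libraries, grouped from the sample titles. The deposited table holds FPKM, made by the authors on mouse build mm9 with tools named BWA, STAR and HTSeq, per the submitters' processing notes; versions, roles, strand and annotation are not given in the sources used here. Members and gene lists were chosen with earlier results of these data known.

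Genes with a mean of at least 1 FPKM (10794) were fitted as log2(FPKM + 1) with limma 3.58.1 (R 4.3.3, eBayes with trend), all 9 libraries sharing one estimate of the spread; a gene was called at a Benjamini-Hochberg adjusted p under 0.05. Fold changes on that scale understate low genes. Named genes were the 10 members, Ubr4, called genes and the 4 with the smallest p of each pathway list, and the 5 nearest in profile. Depth was recovered from steps of low FPKM values with GENCODE M21 exon lengths for 21323 gene identifiers: 71.8% to 74.1% of values under 50 reads were whole within 0.1 reads. The depths and the read numbers built on them are therefore estimates. A read on 1 kilobase is 0.0219 to 0.0341 FPKM. Alternatives were other pseudocounts, filters, scalings, sample sets, a replicate block, robust spread and leaving out each library. In simulated data for construct 5 against control (10794 genes, 200 changed) 44% of genes changed by 0.5 (log2) were recovered and 89% of those changed by 1. Of 140 calls 7 were false. The simulated errors were independent between genes, so they held no shifts shared by many genes of a library. These rates may therefore not hold for the real comparison or for the genes described here. Figures used Python 3.11.15 and matplotlib 3.10.9.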

Additional observations from a re-analysis of the deposited data

How the results depend on the processing

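None of the 9 tested genes was called in any comparison under the other settings, which were 18 for 3 comparisons and 17 for the mean of both constructs, where no fit on 6 libraries applies. Of 639 recomputed changes of these genes 604 kept their direction and 35 turned, all in values that were not called. Many of the 604 could not turn. Filters, the fit on 6 libraries, the replicate block, robust spread and leaving out a library outside the comparison leave the log2 change as it was.

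With median-ratio scaling Acadl turned to -0.042 for construct 5, and for the mean of both constructs Cd36 turned to -0.054, Cpt2 to -0.073, Hadha to -0.032 and Slc25a20 to -0.057; with quantile normalization Cd36 turned to -0.011, Cpt2 to -0.031 and Slc25a20 to -0.01. The cause was not tested. Leaving out 1 library each, the ranges for construct 5 were -0.058 to 0.236 for Acadl, -0.288 to 0.002 for Acadm, -0.312 to 0.041 for Cd36, -0.303 to 0.039 for Cpt2, -0.005 to 0.515 for Fabp3, -0.283 to 0.041 for Hadha and -0.16 to 0.105 for Hadhb. For the mean of both constructs they were -0.1 to 0.045 for Acadm, -0.089 to 0.087 for Acadvl, -0.069 to 0.116 for Cd36, -0.093 to 0.078 for Cpt2, -0.042 to 0.12 for Hadha and -0.06 to 0.107 for Slc25a20. Between the constructs Fabp3 ran from -0.08 to 0.44. Decr2 with construct 7 turned to -0.037 without construct 7 replicate 2, over a leave-one-out range of -0.037 to 0.115.

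Counts over all genes moved far more. For construct 5 against the controls the 569 calls became 204 with a filter at 5 FPKM, 72 with median-ratio scaling, 5 with no filter (more genes tested), 246 with only the 6 libraries of the comparison, 316 with a pseudocount of 0.1 and 86 with quantile normalization, and 1 to 581 without 1 library, the lowest without construct 5 replicate 1. For construct 7 the 6 calls became 0 with no filter and 2 with 6 libraries, and 0 to 5 without 1 library. For the mean of both constructs the 1 call became 2 with the filter at 5 FPKM, 0 with no filter and 0 to 7 without 1 library. Between the constructs the 132 calls became 48 with the filter at 5 FPKM, 76 with median-ratio scaling, 10 with no filter, 23 with 6 libraries, 58 with quantile normalization, and 3 to 387 without 1 library.

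The labels do not say whether replicate numbers pair the samples. Deviations of same-numbered libraries correlated from -0.364 to 0.313, 2 of 9 pairs exceeded 0.1, and 2 of 9 libraries correlated best with their own number. With 3 libraries per group such correlations cannot decide whether samples were paired. With the replicate block the calls were 11 for construct 5, 7 for construct 7, 4 for the mean of both constructs and 217 between the constructs, and 0 of the 9 genes here in each. The Ubr4 call was lost with no filter (adjusted p of 0.0523 for construct 5 and 0.0976 for construct 7). Depth limited Cpt1b most, at 69 to 148 reads per library.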
